A study of Mus musculus with 62 samples.

Results

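Liver RNA of mice bearing a cachectic melanoma was set against liver RNA of mice bearing a non-cachectic melanoma, 4 weeks after the cells were injected. The comparison holds 10 of the 62 libraries of the study, chosen by their labels alone: 5 from mice given cachectic melanoma cells (CAC) and 5 from mice given non-cachectic melanoma cells (NCAC). A further 5 libraries from mock-injected mice (Con) of the same week are given beside them. All 15 mice were female and, by the labels, 2 months old, so that each arm shares sex, age and week. The labels name the strain C57BL/6J, whereas the design text names NCI Ath/nude, a nude stock whose mice lack a thymus and so most T cells, and the extraction text mentions injection of LLC, a lung carcinoma line. These statements differ, and nothing in the labels decides between them. The names of the melanoma lines and the sizes of the tumours are not known here. Each label calls its library a biological replicate, and each was taken as 1 mouse.

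Cachexia is the loss of muscle and fat that accompanies some tumours. In inflammation the liver receives cytokines, chiefly of the interleukin 6 and interleukin 1 families. Interleukin 6 acts through the receptor chain gp130, the kinases of the JAK family and the transcription factor STAT3, and with C/EBP factors it drives the hepatocyte to make acute phase proteins. These include serum amyloid A, orosomucoids, fibrinogen, haptoglobin and complement components. The comparison asks how far the liver transcripts of the cachectic arm already differed from those of a tumour-bearing arm without cachexia midway through the study.

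The promoters of 4 genes whose transcripts were higher in CAC livers are shown for orientation: Saa1, a serum amyloid A gene among the 3 largest increases; Fga and Fgb, neighbouring fibrinogen genes that rose together; and Socs3, the feedback inhibitor of STAT3. Each line holds the 250 bases before the RefSeq start site in the direction of transcription (build GRCm38.p6, which has the coordinates of mm10). The gene spans given below are from GENCODE, whose starts differ for Socs3 and Fga. By those spans the Socs3 window lies wholly inside the gene and the Fga window partly inside it. Capitals mark matches to TTCNNNGAA, the core of a STAT site, which reads alike on both strands, or to TTGCNNAA and its reverse TTNNGCAA, a C/EBP-type pattern.
Saa1 (chr7:46742981-46743230, minus strand): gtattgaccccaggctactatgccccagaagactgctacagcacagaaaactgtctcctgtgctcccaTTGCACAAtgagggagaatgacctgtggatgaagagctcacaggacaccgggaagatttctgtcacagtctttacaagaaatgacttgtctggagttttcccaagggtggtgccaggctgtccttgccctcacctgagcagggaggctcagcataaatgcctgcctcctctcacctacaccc
Fga (chr3:83025903-83026152, plus strand): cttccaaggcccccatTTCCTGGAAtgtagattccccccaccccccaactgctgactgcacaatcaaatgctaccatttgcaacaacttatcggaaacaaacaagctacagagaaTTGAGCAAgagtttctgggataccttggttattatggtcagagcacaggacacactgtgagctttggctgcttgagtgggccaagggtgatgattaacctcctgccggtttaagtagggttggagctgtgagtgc
Fgb (chr3:83049864-83050113, minus strand): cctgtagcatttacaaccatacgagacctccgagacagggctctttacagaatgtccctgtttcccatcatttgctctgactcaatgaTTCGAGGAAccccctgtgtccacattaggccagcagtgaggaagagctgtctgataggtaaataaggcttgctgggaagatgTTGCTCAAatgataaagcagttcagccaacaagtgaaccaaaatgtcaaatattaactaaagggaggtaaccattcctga
Socs3 (chr11:117969367-117969616, minus strand): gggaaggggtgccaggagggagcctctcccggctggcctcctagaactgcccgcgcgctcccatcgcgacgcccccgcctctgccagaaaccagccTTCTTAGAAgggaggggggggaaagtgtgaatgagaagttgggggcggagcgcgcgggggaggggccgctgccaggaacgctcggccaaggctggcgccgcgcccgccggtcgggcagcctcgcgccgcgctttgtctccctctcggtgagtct
Fga and Fgb carried a match of each kind, Saa1 the C/EBP-type pattern alone and Socs3 the STAT pattern alone, and none of these matches overlapped. Counted over the 300 bases of each entry, which also hold the 50 bases after the start, TTCNNNGAA stood in 8.30% of all 32851 promoters and the C/EBP-type pattern in 10.8%. Of the 135 genes called higher 101 had an entry, of which 17.8% held the first pattern and 21.8% the second. The 32851 promoters are not limited to genes tested in these livers, whose share was not counted. The percentages are thus not a like comparison. These matches describe letters in a window and do not show that a factor bound there.

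In CAC livers 135 genes were higher and 19 lower than in NCAC livers at 4 weeks. The 7 largest increases called were those of the serum amyloids Saa2 and Saa1, the neutrophil granule protease Prtn3, the lipocalin Lcn2, the metallothionein Mt2, the orosomucoid Orm2 and the metallothionein Mt1. The 4 largest decreases called were those of the pancreatic elastase Cela1, the cytochrome P450 Cyp2c40, the urinary protein pseudogene Mup-ps12 and the carboxylesterase Ces2c. Values are TPM, each gene's share of a library's transcripts after division by transcript length, and differences are CAC minus NCAC of log2(TPM + 1) with their standard error. A gene was called when its adjusted p from limma, Benjamini-Hochberg over 12160 genes, was under 0.05. The higher genes were 1.11% of those tested and the lower genes 0.156%, with a median difference of 0.01 over all genes. By at least 2-fold, 48 were higher and 6 lower. The standard errors come from the fit over all 62 libraries and do not measure the spread of these 10 alone. A limma fit within the 10 CAC and NCAC libraries alone, which estimates the spread from fewer samples, called 20 genes higher and 0 lower. Of the 20, 19 were among the 154. Saa1, Saa2 and Lcn2 were not called there (adjusted p of 0.234, 0.303 and 0.135). Of the 45 higher genes named here, 13 were called in that fit: Armcx4, Dnajc12, Fga, Fgb, Fgg, Fgl1, Gas6, Itih3, Itih4, Mt2, Orm2, Slc41a2 and Socs3. In 88 of the 135 higher genes every CAC library lay above every NCAC library, and in 11 of the 19 lower genes every CAC library lay below. Over all genes tested, 1.11% had such separation upward and 0.444% downward. Among the higher genes named here the arms overlapped for Saa1, Saa2, Mt1, Isyna1, C8a, Hpx, Steap4, Il6st, Il1r1, Crp, Fetub and Pgm1. In bulk tissue, fewer cells of a type and less RNA per cell cannot be told apart.

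**Figure D1:**
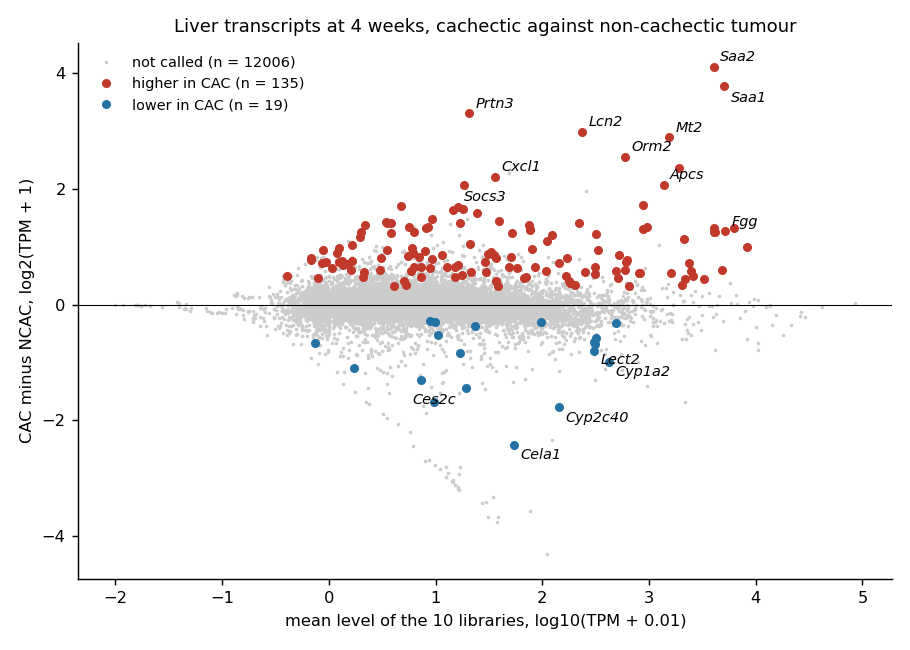
Each point is 1 of the 12160 genes tested; the horizontal axis is the mean TPM of the 10 libraries on a log10 scale and the vertical axis is the difference CAC minus NCAC of log2(TPM + 1). The 135 red points were called higher in CAC and the 19 blue points lower, and the tail of uncalled points reaching below -4 holds pancreatic transcripts of NCAC libraries.

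Transcripts of exocrine pancreas were held by 3 of 5 NCAC livers at 4 weeks. The chymotrypsinogen Ctrb1 was at most 5.78 TPM in CAC livers, against 187, 806 and 104 TPM in NCAC replicates 3, 4 and 5, and at most 0.360 TPM in Con livers. NCAC replicate 4 also had the highest B cell, fat, MHC class II and acute phase levels of its arm. Ribosomal protein genes summed to 28342 TPM in it and 29201 TPM in CAC replicate 2, against at most 19329 TPM in every other 4-week liver. Mitochondrially encoded transcripts summed to 146113 and 149261 TPM in that order, against at least 173495 TPM in every other. Deviations of these livers from their group means correlated at 0.55, the highest of the CAC and NCAC pairs. The cause was not tested. Counts without all 12 libraries of the study that held pancreatic or muscle transcripts are given below as without other-tissue libraries. They rest on 2 NCAC livers at this week. Albumin was between 78864 and 101855 TPM in CAC, between 75709 and 103966 TPM in NCAC and between 77958 and 96402 TPM in Con livers, as liver should show. No 2 libraries of an arm were identical, and the sequencing depth is unknown because the values are TPM.

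Serum amyloid A is an apolipoprotein that the inflamed liver secretes. Saa1 (chromosome 7, 46740497 to 46742980) had 3234, 21193, 5373, 14225 and 2235 TPM in the CAC livers, against 66.9, 259.6, 573, 2762 and 845 TPM in the NCAC livers. All CAC livers but replicate 5 exceeded every NCAC liver, since NCAC replicate 4 was above it, so that the arms overlapped. Saa1 rose by 3.78 ± 0.85 (adjusted p = 0.00696), and its near-identical neighbour Saa2, which may share its reads, by 4.10 ± 1.02 (adjusted p = 0.0207). The call of Saa1 was lost without CAC replicate 2 (3.36, adjusted p = 0.0523) and without NCAC replicate 1 (3.08, adjusted p = 0.0726). That of Saa2 was lost without any 1 of CAC replicates 2 or 4 or NCAC replicates 1 or 2 (adjusted p between 0.0663 and 0.119). Without other-tissue libraries the differences were 5.61 (adjusted p = 0.00573) for Saa1 and 6.41 (adjusted p = 0.00715) for Saa2. Each difference was then larger and still called. The NCAC livers left out, replicates 3, 4 and 5, held the highest levels of both genes in their arm. Leaving them out could thus only enlarge the difference.

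Lcn2, which binds bacterial siderophores (chromosome 2, 32384633 to 32388252), had 186, 875, 212, 661 and 169 TPM in the CAC livers, against 10.5, 40.2, 39.5, 137 and 47.5 TPM in the NCAC livers. The arms did not overlap, and the highest level in each was in a liver that was also high in Saa1. It rose by 2.98 ± 0.57 (adjusted p = 0.000834) and by 3.92 (adjusted p = 0.0034) without other-tissue libraries, which leaves out its highest NCAC liver. Orm2, an orosomucoid that carries drugs and lipids in plasma (chromosome 4, 63362449 to 63365878), had 613, 1137, 695, 1858 and 741 TPM in the CAC livers, against 96.5, 162, 123, 334 and 143 TPM in the NCAC livers. Every CAC liver was above every NCAC liver, and the difference was 2.56 ± 0.41 (adjusted p = 7.18e-05). The pentraxin Apcs, serum amyloid P, averaged 2258 ± 1502 TPM in CAC livers and 480.3 ± 164 TPM in NCAC livers (SD, n = 5 each) and rose by 2.06 ± 0.36 (adjusted p = 0.000206). Lrg1, a leucine-rich plasma glycoprotein, rose by 1.72 ± 0.28 (adjusted p = 7.51e-05). Without other-tissue libraries, which leaves out its highest NCAC livers, it rose by 2.40 (adjusted p = 0.00015).

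**Figure D2:**
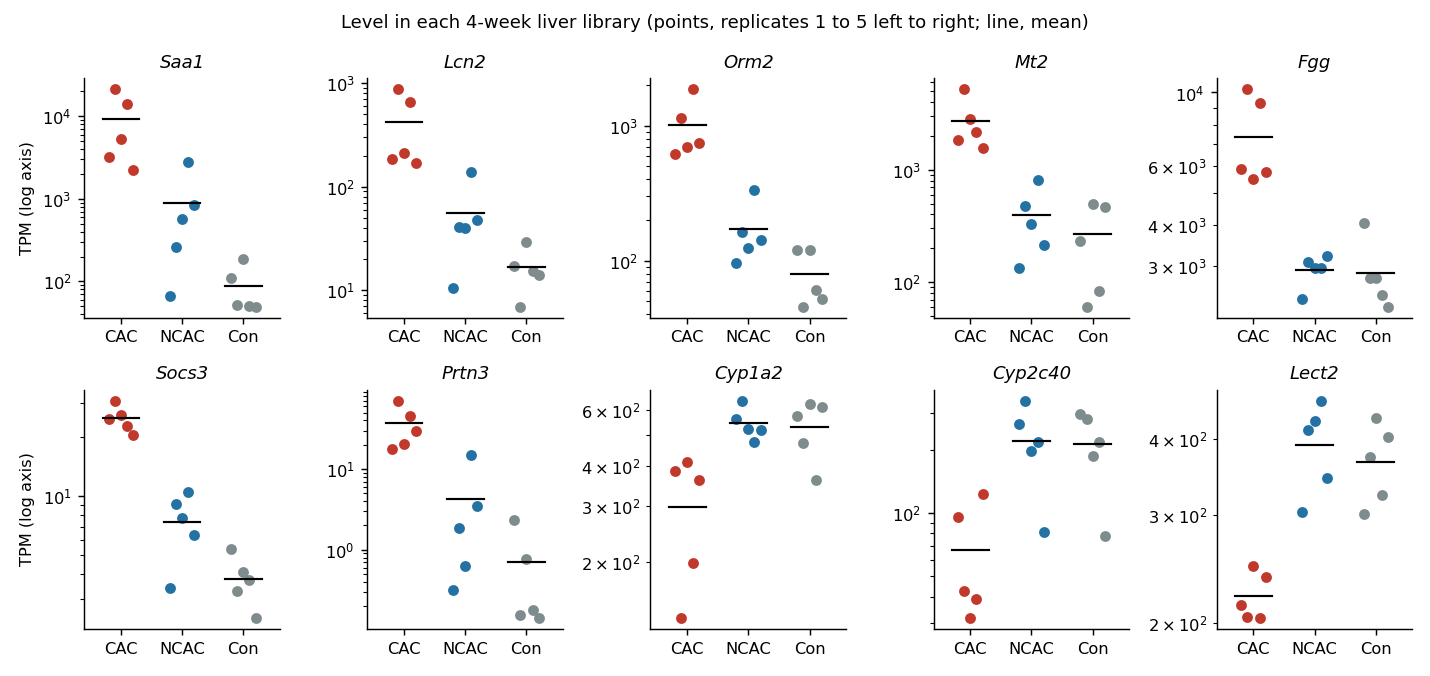
TPM on a log axis in each 4-week liver for 10 genes, with CAC, NCAC and Con in columns, a point per library and a line at the mean. CAC points lie above all NCAC points for Lcn2, Orm2, Mt2, Fgg, Socs3 and Prtn3 and below all of them for Cyp1a2 and Lect2, whereas Saa1 and Cyp2c40 overlap.

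The 3 chains of fibrinogen, the precursor of the clot, rose by nearly the same amount. Fga, the alpha chain (chromosome 3, 83026076 to 83033627), had 4761, 6428, 4964, 8444 and 4725 TPM in the CAC livers, against 1908, 2844, 2408, 2183 and 2715 TPM in the NCAC livers. Fgb, the beta chain (chromosome 3, 83040141 to 83049863), had 5283, 8334, 4148, 7259 and 4518 TPM in the CAC livers, against 1908, 2457, 2388, 2135 and 2531 TPM in the NCAC livers. Fgg, the gamma chain, averaged 7322 ± 2241 TPM in CAC livers and 2931 ± 316 TPM in NCAC livers. In each chain every CAC liver exceeded every NCAC liver, and CAC replicates 2 and 4 were the highest. The differences were 1.26 ± 0.19 (adjusted p = 4.49e-05) for Fga, 1.33 ± 0.21 (adjusted p = 5.47e-05) for Fgb and 1.28 ± 0.20 (adjusted p = 4.49e-05) for Fgg, which was named after its values were seen.

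Further secreted proteins moved with them. Itih4, an inter-alpha-trypsin inhibitor chain, averaged 2913 ± 613 TPM in CAC livers and 1307 ± 110.4 TPM in NCAC livers, a difference of 1.14 ± 0.16 (adjusted p = 1.06e-05). Its relative Itih3, named after its values were seen, differed by 1.34 ± 0.24 (adjusted p = 0.000409). Lbp, which hands bacterial lipopolysaccharide to its receptor, had 82.9, 168, 88.5, 130.3 and 78.6 TPM in the CAC livers, against 28.7, 45.9, 46.5, 45.4 and 46.7 TPM in the NCAC livers. The arms did not overlap, and the difference was 1.30 ± 0.18 (adjusted p = 1.06e-05). Fgl1, a fibrinogen-like liver protein, rose by 1.30 ± 0.19 (adjusted p = 2.18e-05), and Orm1 by 1.25 ± 0.22 (adjusted p = 0.000261). Crp, a weak acute phase protein in mice that was named after its values were seen, rose by 0.57 ± 0.14 (adjusted p = 0.0182), a call lost without any 1 of CAC replicates 2 or 4 or NCAC replicates 1 or 4 (adjusted p between 0.059 and 0.128).

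Of 34 measured acute phase genes 23 were higher and 0 lower, against 1.11% and 0.156% of all genes. This list, like the others, was written with earlier results of these data known. The list's median difference was 1.07, against 0.01 over all genes, and 29 members were positive. In 17 members every CAC liver was above every NCAC liver, against 1.11% of all genes. In the fit within the 10 libraries 8 were higher, after median-of-ratios rescaling 21, and without other-tissue libraries 16, with a median of 1.15. Summed over the list, CAC livers held between 93693 and 170625 TPM, NCAC livers between 54442 and 83483 TPM and Con livers between 56213 and 64105 TPM.

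**Figure D3:**
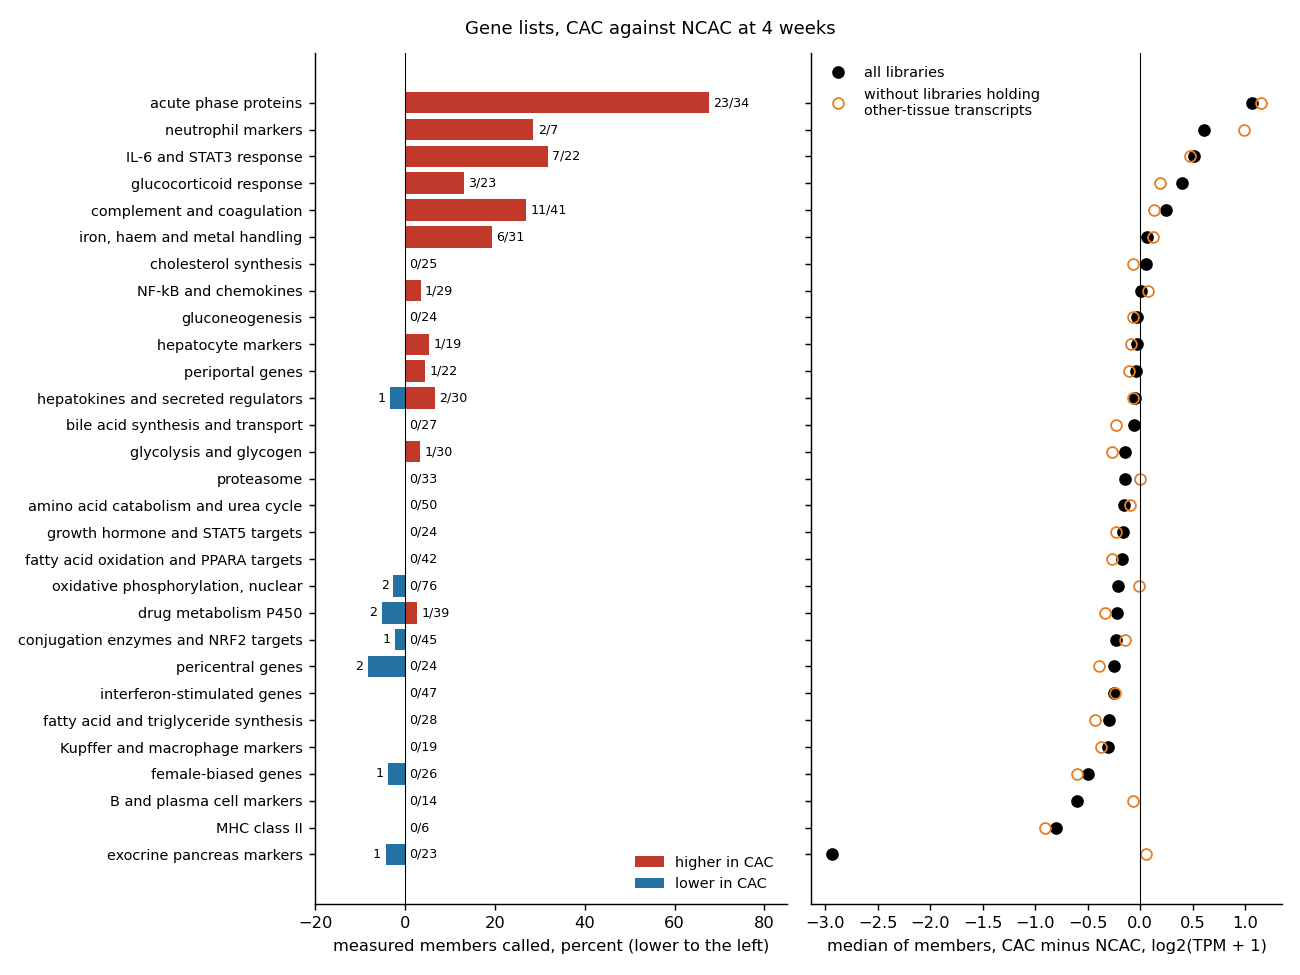
For 29 gene lists, the left panel gives the percent of measured members called higher (right of 0) or lower (left of 0) in CAC, with the number called and the number measured, and the right panel the median difference of the members with all libraries (filled) and without other-tissue libraries (open). The acute phase list leads with 23 of 34 members higher, and the median of the pancreas list is -2.93 with all libraries and 0.06 without the other-tissue ones.

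Of 22 measured members of the IL-6 and STAT3 list 7 were higher and 0 lower, against 1.11% and 0.156% of all genes. The list's median was 0.51. Among the receptors, Il6st, which encodes gp130 and was named after its values were seen, rose by 0.88 ± 0.19 (adjusted p = 0.00415). Il13ra1, a chain of the receptors for interleukins 4 and 13, had 38.2, 39.3, 46.9, 57 and 42.9 TPM in the CAC livers, against 24.1, 32.3, 26.4, 13.8 and 28.4 TPM in the NCAC livers. All CAC livers were above all NCAC livers, and the difference was 0.85 ± 0.17 (adjusted p = 0.00122). The tumour necrosis factor receptor Tnfrsf1a rose by 0.63 ± 0.13 (adjusted p = 0.00268). Il1r1, the receptor of interleukin 1, was also named after its values were seen and rose by 1.58 ± 0.37 (adjusted p = 0.0116), a call lost without any 1 of CAC replicates 2 or 4 or NCAC replicate 3 (adjusted p between 0.0547 and 0.0878).

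Stat3 itself (chromosome 11, 100885098 to 100939540) had 35.2, 30.9, 43.3, 34.2 and 37.5 TPM in the CAC livers, against 19.1, 29, 22.2, 15.8 and 22.9 TPM in the NCAC livers. The arms did not overlap, although the difference of 0.73 ± 0.14 (adjusted p = 0.000699) was under 2-fold. Socs3 (chromosome 11, 117966079 to 117970047), whose protein binds gp130 and its kinases and shuts the signal off, had 24.9, 30.7, 25.9, 22.9 and 20.6 TPM in the CAC livers, against 3.39, 9.16, 7.72, 10.6 and 6.31 TPM in the NCAC livers. The CAC livers averaged 25 ± 3.8 TPM (SD, n = 5), all above the NCAC livers, and Socs3 rose by 1.69 ± 0.29 (adjusted p = 0.000163). Jak3, a kinase of cytokine receptors that was named after its values were seen, rose by 0.88 ± 0.19 (adjusted p = 0.0036). Cebpd, a C/EBP factor of the acute phase, was at 0.81 ± 0.32 (adjusted p = 0.306) and was not called. The transcript of interleukin 6 was at most 0.0794 TPM in CAC, 0.0454 TPM in NCAC and 0.0658 TPM in Con livers. Without other-tissue libraries 1 of the 22 members was called, Socs3 at 1.95 (adjusted p = 0.00612), with a median of 0.47 over the list, after rescaling 7 were called and in the fit within the 10 libraries 1.

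Complement and coagulation genes rose in part. Of 41 measured members 11 were higher and 0 lower, against 1.11% and 0.156% of all genes, with a median of 0.24. In 10 members every CAC liver was above every NCAC liver, against 1.11% of all genes. C8a, a chain of the membrane attack complex, averaged 444 ± 116 TPM in CAC livers and 194 ± 67.7 TPM in NCAC livers, a difference of 1.21 ± 0.20 (adjusted p = 0.00012). C4b, of the classical and lectin pathways, had 735, 734, 877, 726 and 843 TPM in the CAC livers, against 386, 563, 427, 432 and 511 TPM in the NCAC livers. Each CAC liver exceeded each NCAC liver, with a difference of 0.76 ± 0.13 (adjusted p = 0.000133). The central component C3, named after its values were seen, rose by 0.59 ± 0.12 (adjusted p = 0.00286). On the clotting side, Cpb2, a carboxypeptidase that slows clot lysis, had 645, 921, 637, 970.4 and 673 TPM in the CAC livers, against 444, 507, 464, 411 and 462 TPM in the NCAC livers. The arms were separate, and Cpb2 rose by 0.73 ± 0.12 (adjusted p = 5.47e-05). Pros1, the anticoagulant protein S, rose by 0.81 ± 0.14 (adjusted p = 0.000231), and Gas6, its relative and a ligand of the TAM receptor kinases, by 1.29 ± 0.25 (adjusted p = 0.000834). Gas6 was named after its values were seen. Without other-tissue libraries 4 of the 41 were called, with a median of 0.14, and in the fit within the 10 libraries 0.

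Metal-binding genes were among the largest increases. Metallothioneins bind zinc and copper and are induced by metals, glucocorticoids and cytokines. Mt2 had 1821, 5168, 2810.0, 2153 and 1547 TPM in the CAC livers, against 135, 479, 331, 815 and 215 TPM in the NCAC livers. Every CAC liver was above every NCAC liver, and Mt2 rose by 2.90 ± 0.63 (adjusted p = 0.00413). Mt1, its neighbour, averaged 3195 ± 2124 TPM in CAC livers and 661 ± 518 TPM in NCAC livers and rose by 2.36 ± 0.54 (adjusted p = 0.00848), a call lost without CAC replicate 2 (2.03, adjusted p = 0.0702) and without NCAC replicate 1 (2.04, adjusted p = 0.0654). Without other-tissue libraries neither was called, at 3.26 (adjusted p = 0.0617) for Mt2 and 2.75 (adjusted p = 0.0695) for Mt1.

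The 31 measured iron, haem and metal genes had a median of 0.06. Of them 6 were higher and 0 lower, against 1.11% and 0.156% of all genes. Besides the metallothioneins these were Hp, Hpx, Steap4 and Tfr2, and 4 of the 6 also belong to the acute phase list. In the fit within the 10 libraries 1 was called. Haptoglobin Hp, which captures free haemoglobin, had 6268, 15348, 7119, 9674 and 5948 TPM in the CAC livers, against 2042, 4421, 2942, 5490.4 and 2837 TPM in the NCAC livers. The lowest CAC liver was above the highest NCAC liver, and the difference was 1.31 ± 0.23 (adjusted p = 0.000261). Hemopexin Hpx, the haem scavenger, rose by 0.99 ± 0.18 (adjusted p = 0.000302). Steap4, a metalloreductase of iron and copper, rose by 1.21 ± 0.26 (adjusted p = 0.0036). Tfr2, an iron sensor of the hepatocyte, rose by 0.41 ± 0.08 (adjusted p = 0.00173). Hepcidin Hamp, the hormone that blocks iron export, had 2212, 1539, 692, 142 and 1709 TPM in the CAC livers, against 1798, 1929.9, 4591, 3805 and 3239 TPM in the NCAC livers. All CAC livers but replicate 1 lay below every NCAC liver, and its difference was -1.68 ± 0.81 (adjusted p = 0.461), which was not called.

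Of 29 measured NF-kB and chemokine genes 1 was higher, and of 7 measured neutrophil markers 2, against 1.11% of all genes. Cxcl1, which attracts neutrophils, had 46.1, 148, 31.3, 43.8 and 36 TPM in the CAC livers, against 4.94, 14.9, 9.74, 10.2 and 14.8 TPM in the NCAC livers. CAC replicate 2 was far above the others, yet every CAC liver was above every NCAC liver, and Cxcl1 rose by 2.21 ± 0.46 (adjusted p = 0.00281). It was the 1 called member of 29 in the NF-kB and chemokine list, whose median was 0.01, and without other-tissue libraries it was at 2.42 (adjusted p = 0.0882). Prtn3, a serine protease of neutrophil granules (chromosome 10, 79874476 to 79883174), had 17.5, 70.4, 20.7, 46 and 29.8 TPM in the CAC livers, against 0.315, 1.85, 0.634, 15 and 3.53 TPM in the NCAC livers. The arms did not overlap, although NCAC replicate 4 came close to the lowest CAC liver. Prtn3 rose by 3.30 ± 0.52 (adjusted p = 5.47e-05). Without other-tissue libraries, which leaves out that NCAC liver, it rose by 4.11 (adjusted p = 0.000574).

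Prtn3 and Lcn2 were the 2 called members of 7 measured neutrophil markers, and Lcn2 is also made by hepatocytes. Elane, whose protease is stored in the same granules, was between 0.344 and 0.629 TPM in CAC, at most 0.193 TPM in NCAC and at most 0.204 TPM in Con livers. Its CAC and NCAC levels did not overlap. Mpo was at most 0.155 TPM in CAC and 0.0161 TPM in NCAC livers and listed at 0 in Con livers. All 7 measured markers were positive, with a median difference of 0.61, and of 0.99 without other-tissue libraries. S100a8 was between 1.59 and 6.11 TPM in CAC, between 1.11 and 3.97 TPM in NCAC and between 0.925 and 7.66 TPM in Con livers. S100a9, its partner in calprotectin, was between 4.59 and 20.1 TPM in CAC, between 3.38 and 10.5 TPM in NCAC and between 2.65 and 19.5 TPM in Con livers. Ngp, of neutrophil granules, was at most 0.631 TPM in CAC, 0.255 TPM in NCAC and 0.157 TPM in Con livers, and Retnlg at most 4.92, 1.54 and 0.928 TPM in that order. Elane, Mpo and Ngp were thus under 1 TPM in every arm, whereas S100a8, S100a9 and Retnlg were detected in each liver. The summed level of the 17 listed markers was between 208 and 983 TPM in CAC, between 18.6 and 171 TPM in NCAC and between 20.7 and 50.2 TPM in Con livers, and in CAC livers most of it was Lcn2. The part of neutrophils in the rise of Prtn3 was not tested.

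Slc41a2, a magnesium transporter, had 14.6, 29.8, 29.5, 52.4 and 27.9 TPM in the CAC livers, against 3.59, 7.01, 7.33, 4.78 and 8.82 TPM in the NCAC livers. The arms were separate, and it rose by 2.07 ± 0.32 (adjusted p = 4.49e-05). Isyna1, which makes inositol phosphate from glucose 6-phosphate, rose by 1.66 ± 0.32 (adjusted p = 0.000799), and the co-chaperone Dnajc12, a partner of the aromatic amino acid hydroxylases, by 1.63 ± 0.22 (adjusted p = 1e-05). Armcx4 rose by 1.71 ± 0.28 (adjusted p = 7.18e-05). Tifa, an adaptor of innate immune signalling named after its values were seen, rose by 1.04 ± 0.20 (adjusted p = 0.00122).

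Single members of the metabolic lists were higher too. Cyp3a13 averaged 321 ± 116 TPM in CAC livers and 125 ± 48.9 TPM in NCAC livers and rose by 1.41 ± 0.28 (adjusted p = 0.00154), against the direction of the other P450 genes called. The lysosomal protease Ctsc, the 1 called periportal gene of 22, rose by 0.66 ± 0.15 (adjusted p = 0.0106), a call lost without NCAC replicate 4 (0.54, adjusted p = 0.083). Fetuin-B, Fetub, rose by 0.60 ± 0.15 (adjusted p = 0.0231), a call lost without any 1 of CAC replicate 2 or NCAC replicates 1, 3 or 5 (adjusted p between 0.0874 and 0.181). Pgm1, a phosphoglucomutase and the 1 called gene of 30 in glycolysis and glycogen, rose by 0.34 ± 0.09 (adjusted p = 0.0408), and this call was lost without any 1 of CAC replicates 2 or 4 or NCAC replicates 3 or 4 (adjusted p between 0.105 and 0.249).

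The genes lower in CAC livers included several enzymes of the hepatocyte, most of them lower by less than 2-fold. The 6 of 19 that differed by at least 2-fold were Cyp2c40, Ces2c, the pancreatic elastase Cela1 and the pseudogenes Mup-ps12, Mup-ps10 and Mup-ps14. Of the 15 lower genes named here, 0 were called without other-tissue libraries (adjusted p between 0.068 and 0.487) and 0 in the fit within the 10 libraries (adjusted p between 0.053 and 0.773). Cyp2c40, a P450 with higher levels in female liver (chromosome 19, 39767071 to 39812814), had 95.8, 42.5, 31.7, 39 and 123 TPM in the CAC livers, against 266, 342, 197, 216 and 80.9 TPM in the NCAC livers. Only NCAC replicate 5 fell within the CAC range, and Cyp2c40 fell by 1.78 ± 0.46 on the log2 scale (adjusted p = 0.0295). Its call was lost without any 1 of CAC replicates 2, 3 or 4 or NCAC replicates 1, 2, 3 or 4 (adjusted p between 0.0609 and 0.124). Near-identical Cyp2c69 was at -2.34 ± 0.72 (adjusted p = 0.11) and was not called, and reads of these copies may be shared. Cyp1a2, which oxidises caffeine and aromatic amines near the central vein (chromosome 9, 57676937 to 57683703), had 385, 133, 411, 198 and 361 TPM in the CAC livers, against 564, 642, 522, 477 and 521 TPM in the NCAC livers. Every CAC liver was below every NCAC liver, and the fall was by 0.99 ± 0.24 on the log2 scale (adjusted p = 0.0158). It was lost without CAC replicate 2 (-0.73, adjusted p = 0.152) and without CAC replicate 4 (-0.87, adjusted p = 0.0837).

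Ces2c, a carboxylesterase (chromosome 8, 104847068 to 104854483), had 15.3, 4.58, 11.8, 6.51 and 13.6 TPM in the CAC livers, against 42.6, 21, 23.6, 23.8 and 30.8 TPM in the NCAC livers. The arms were separate, and Ces2c fell by 1.44 ± 0.33 on the log2 scale (adjusted p = 0.00728), a call lost without CAC replicate 2 (-1.21, adjusted p = 0.0702). Lect2, a hepatokine expressed near the central vein (chromosome 13, 56542464 to 56548502), had 214, 204, 248, 204 and 238 TPM in the CAC livers, against 304, 413, 428, 462 and 345 TPM in the NCAC livers. All CAC livers lay in a narrow band below the lowest NCAC liver, and Lect2 fell by 0.80 ± 0.17 on the log2 scale (adjusted p = 0.00302), and no single left-out library ended the call. Slc25a45, a mitochondrial carrier, fell by 0.83 ± 0.17 on the log2 scale (adjusted p = 0.00257) and likewise kept its call with any 1 library left out. Without other-tissue libraries neither was called, at -0.68 (adjusted p = 0.225) for Lect2 and -0.76 (adjusted p = 0.179) for Slc25a45. Gulo, which catalyses the last step of vitamin C synthesis, averaged 243 ± 69.3 TPM in CAC livers and 376 ± 28.2 TPM in NCAC livers and fell by 0.68 ± 0.15 on the log2 scale (adjusted p = 0.00674), a call lost without CAC replicate 2 (-0.51, adjusted p = 0.0878).

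Smaller decreases were those of Gstt1, a glutathione transferase, at -0.65 ± 0.18 (adjusted p = 0.0498), and Tst, the sulfur transferase rhodanese, at -0.57 ± 0.14 (adjusted p = 0.0127). The call of Gstt1 was lost without any 1 of CAC replicates 1, 2 or 4 or NCAC replicates 1, 3, 4 or 5 (adjusted p between 0.0518 and 0.225), and that of Tst without any 1 of CAC replicates 2 or 4 or NCAC replicate 4 (adjusted p between 0.0747 and 0.109). Txnl4b was at -0.53 ± 0.12 (adjusted p = 0.00728), lost without CAC replicate 2 (-0.45, adjusted p = 0.0626), and Gtf3c6, a subunit of a factor for RNA polymerase III, at -0.37 ± 0.10 (adjusted p = 0.0408), lost without any 1 of CAC replicates 2, 3 or 4 or NCAC replicates 1, 3, 4 or 5 (adjusted p between 0.0692 and 0.218). The pseudogenes Mup-ps12 at -1.69 ± 0.43 (adjusted p = 0.0275) and Mup-ps10 at -1.31 ± 0.35 (adjusted p = 0.0398) belong to the major urinary protein cluster, whose copies share reads. Their calls were lost without any 1 of CAC replicates 2 or 4 or NCAC replicates 1, 4 or 5 (adjusted p between 0.052 and 0.234) for Mup-ps12 and without any 1 of CAC replicates 1 or 2 or NCAC replicates 1, 3, 4 or 5 (adjusted p between 0.0547 and 0.266) for Mup-ps10.

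Cela1, a pancreatic elastase, was the largest decrease among called genes, while uncalled pancreatic transcripts differed by more. It had 13.9, 9.35, 7.32, 7.23 and 14.8 TPM in the CAC livers, against 13.9, 22.7, 123, 272 and 60.4 TPM in the NCAC livers. The NCAC livers with the highest levels were replicates 3, 4 and 5, which held the other pancreatic transcripts, and Cela1 fell by 2.42 ± 0.65 on the log2 scale (adjusted p = 0.0408). The call was lost without any 1 of CAC replicates 2, 3 or 4 or NCAC replicates 3, 4 or 5 (adjusted p between 0.0756 and 0.215). Without other-tissue libraries the difference was -0.76 (adjusted p = 0.487). Con livers, with at most 0.360 TPM of Ctrb1, had 17.1, 37, 33.3, 18 and 16.4 TPM of Cela1. Without other-tissue libraries 3 genes in all were called lower.

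Genes of the respiratory chain and the proteasome showed small differences that depended on the other-tissue libraries. Limma called 2 of 76 nuclear-encoded respiratory genes lower and 0 higher, against 0.156% and 1.11% of all genes. The median was -0.21, and 75 members were negative. Without other-tissue libraries the median was -0.01 and no member was called. Atp5b, the catalytic subunit of ATP synthase, averaged 439 ± 47.8 TPM in CAC livers and 545 ± 22 TPM in NCAC livers and fell by 0.32 ± 0.08 on the log2 scale (adjusted p = 0.0341). Ndufa10, of complex I, fell by 0.30 ± 0.08 on the log2 scale (adjusted p = 0.044). The call of Atp5b was lost without any 1 of CAC replicates 2, 4 or 5 or NCAC replicates 1, 3, 4 or 5 (adjusted p between 0.0508 and 0.137), and that of Ndufa10 without any 1 of CAC replicates 2, 3, 4 or 5 or NCAC replicates 1, 3, 4 or 5 (adjusted p between 0.057 and 0.21). Among 33 proteasome genes 0 were called in either direction, against 1.27% of all genes. Their median was -0.15 and became 0.00 without other-tissue libraries.

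The lists of lipid, sugar and amino acid metabolism held almost no called genes, where 1.27% of all genes were called. At that share a count of 0 or 1 does not set a list of this size apart. Among 42 genes of fatty acid oxidation, 28 of fatty acid and triglyceride synthesis, 25 of cholesterol synthesis, 27 of bile acid synthesis and transport, 24 of gluconeogenesis and 50 of amino acid catabolism, limma called 0 in either direction. Their medians were -0.17, -0.30, 0.06, -0.06, -0.02 and -0.15 in that order. Negative members numbered 31, 24, 12, 16, 13 and 40 in the same order. Summed over the fatty acid oxidation list, CAC livers held between 8207 and 19413 TPM and NCAC livers between 19873 and 24615 TPM. Con livers held between 18375 and 22501 TPM. In the other lists of this group the summed levels of CAC and NCAC overlapped. The fatty acid desaturase Fads1 averaged 253 ± 75.5 TPM in CAC livers and 364 ± 87.3 TPM in NCAC livers, with a difference of -0.56 ± 0.22 (adjusted p = 0.291). Hgd, which opens the ring of homogentisate in tyrosine breakdown, was at -0.59 ± 0.17 (adjusted p = 0.065), just outside the threshold. Of 45 conjugation enzymes and NRF2 targets 1 was lower, Gstt1, and of 39 drug-metabolising P450 genes 1 was higher and 2 lower, with medians of -0.23 and -0.22. By zone, 2 of 24 pericentral genes (Cyp1a2 and Lect2) were lower and 1 of 22 periportal genes higher. Growth hormone targets had 0 of 24 called and a median of -0.16. The female-biased list had 1 of 26 called, Cyp2c40, and a median of -0.49. In the glucocorticoid response list 3 of 23 were higher (Lcn2, Mt1 and Mt2), with a median of 0.40, and among hepatokines 2 of 30 were higher (Fgl1 and Fetub) and 1 lower (Lect2). Of 19 hepatocyte markers 1 was higher, Fgb, and their median was -0.03.

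Hormones and enzymes given whatever their result included several that were not called. Igf1, the growth hormone-driven growth factor, averaged 139 ± 17.8 TPM in CAC livers and 131 ± 25.7 TPM in NCAC livers (SD, n = 5 each), a difference of 0.09 ± 0.13 (adjusted p = 0.848). Igfbp1, an insulin-repressed binding protein of growth factors, was at 0.87 ± 0.71 (adjusted p = 0.728). Fgf21 and Gdf15, hormones released under metabolic and cellular stress, were at 0.21 ± 0.30 (adjusted p = 0.847) and -0.20 ± 0.26 (adjusted p = 0.825), each under 3 TPM in every CAC and NCAC liver. Pck1, the carboxykinase of gluconeogenesis, was at 0.36 ± 0.29 (adjusted p = 0.717), and Cyp7a1, the rate-limiting enzyme of bile acid synthesis, at -0.94 ± 0.73 (adjusted p = 0.712). The lipogenic factor Srebf1 was at -0.27 ± 0.28 (adjusted p = 0.788) and albumin Alb at 0.03 ± 0.11 (adjusted p = 0.949). Car3, a carbonic anhydrase abundant in hepatocytes, had 489.9, 101, 827, 426 and 1209 TPM in the CAC livers, against 1719, 935, 1365, 663 and 1903 TPM in the NCAC livers. The means differed by more than 2-fold, but the arms overlapped, and the difference was -1.40 ± 0.62 (adjusted p = 0.39). Mup3, a urinary protein, was at -0.59 ± 0.62 (adjusted p = 0.796), with CAC replicate 2 at 275 TPM and the next CAC liver at 1302 TPM. Of these 18 sentinel genes 7 were higher and 0 lower, against 1.11% and 0.156% of all genes. The genes were chosen with earlier results of these data known, so the count does not test them. The 7 were Saa1, Saa2, Lcn2, Orm1, Orm2, Mt1 and Mt2.

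Markers of B cells and macrophages, MHC class II genes and interferon-stimulated genes were not called either, where 1.27% of all genes were called. The 6 measured MHC class II genes had a median of -0.80, with all 6 negative and 0 called. H2-Ab1, which presents peptides to helper T cells, had 34.8, 31, 13.5, 15.8 and 9.65 TPM in the CAC livers, against 62.1, 28.6, 20.8, 74.8 and 33.3 TPM in the NCAC livers, a difference of -1.03 ± 0.37 (adjusted p = 0.235). The 14 B and plasma cell markers had a median of -0.60 with all libraries and -0.07 without other-tissue libraries. The B cell receptor chain Cd79a was at most 3.07 TPM in CAC livers, against 16.3 TPM in NCAC replicate 4. Of 19 Kupffer cell and macrophage markers 0 were called, with a median of -0.31. Among 47 interferon-stimulated genes 0 were called, with a median of -0.25. Without other-tissue libraries the medians were -0.90 for MHC class II, -0.37 for Kupffer cells and -0.24 for interferon-stimulated genes. The melanocyte genes Tyrp1 and Mlana were listed at 0 in every CAC, NCAC and Con liver at 4 weeks, and Tyr was at most 0.00714 TPM.

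Across the arms the highest acute phase levels were in CAC livers, whose pancreatic levels were low. Within NCAC, replicate 4 was the highest on both lists and replicate 1 the lowest on both. The mean log2 level of the acute phase list was between 10.05 and 10.87 in CAC, between 8.72 and 9.69 in NCAC and between 8.68 and 9.04 in Con livers, so that CAC did not overlap the others. NCAC replicates 3, 4 and 5, with high pancreatic levels, had acute phase means between 9.22 and 9.69, whereas NCAC replicate 2, without them, was at 9.38 and replicate 1 at 8.72. The part of other-tissue transcripts in the acute phase levels of those livers was not tested. Without other-tissue libraries limma called 49 genes higher and 3 lower in CAC livers, and 47 of these 52 were among the 154 called with all libraries. Of the 45 higher genes named here, 25 were called there; the other 20 were C3, C8a, Crp, Ctsc, Cxcl1, Cyp3a13, Fetub, Gas6, Il13ra1, Il1r1, Il6st, Jak3, Mt1, Mt2, Pgm1, Pros1, Stat3, Steap4, Tifa and Tnfrsf1a.

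**Figure D4:**
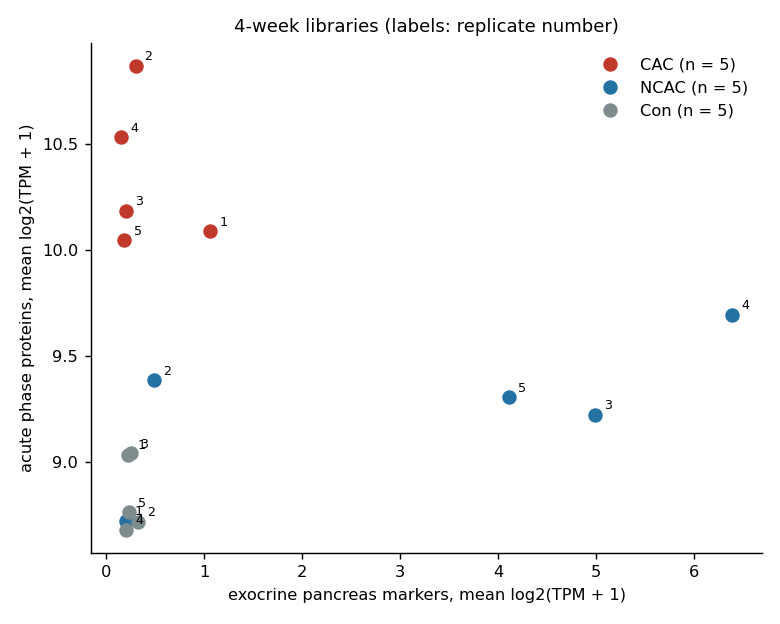
Mean log2(TPM + 1) of the exocrine pancreas markers (horizontal) and of the acute phase proteins (vertical) in each 4-week library, numbered by replicate. The 5 CAC livers are above all others on the vertical axis at low pancreatic levels, and NCAC replicates 3, 4 and 5 stand to the right.

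Set against mock-injected livers of the same week, CAC livers had 158 genes higher (1.3% of those tested) and 74 lower (0.609%), 1.91% in all. NCAC livers had 0 genes called against Con by limma (0%), with 206 higher and 728 lower at an unadjusted p under 0.05. These comparisons share libraries with the comparison of the tumour arms and are not independent of it. Saa1 was at 6.40 ± 0.85 (adjusted p = 4.24e-07) for CAC minus Con and at 2.61 ± 0.85 (adjusted p = 0.617) for NCAC minus Con. Its levels were 3234, 21193, 5373, 14225 and 2235 TPM in CAC, 66.9, 259.6, 573, 2762 and 845 TPM in NCAC and 109, 51.6, 185, 50.1 and 49.4 TPM in Con livers. Levels of NCAC livers thus stood between, with the lowest NCAC liver inside the range of Con livers. Socs3 was at 2.46 ± 0.29 (adjusted p = 5.55e-08) for CAC minus Con and 0.78 ± 0.29 (adjusted p = 0.617) for NCAC minus Con. Fga was at 1.30 ± 0.19 (adjusted p = 4.77e-06) and 0.04 ± 0.19 (adjusted p = 0.963), with means of 2412 ± 382 TPM in NCAC and 2344 ± 426 TPM in Con livers.

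In the acute phase list 24 of 34 genes were higher in CAC than in Con livers, with a median of 1.27, whereas 0 were called in NCAC against Con, with a median of 0.17. Of the lower genes, Cyp1a2 was at -0.93 ± 0.24 (adjusted p = 0.022) for CAC minus Con and 0.06 ± 0.24 (adjusted p = 0.957) for NCAC minus Con. Ces2c was at -1.53 ± 0.33 (adjusted p = 0.00256) and -0.09 ± 0.33 (adjusted p = 0.951), and Lect2 at -0.72 ± 0.17 (adjusted p = 0.00911) and 0.09 ± 0.17 (adjusted p = 0.897). Cela1, the pancreatic elastase, was at -1.11 ± 0.65 (adjusted p = 0.48) for CAC minus Con and 1.31 ± 0.65 (adjusted p = 0.617) for NCAC minus Con.

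The difference between the tumour arms was followed over the 4 time points sampled. At 2 weeks limma called 0 genes between CAC and NCAC, with 1770 at an unadjusted p under 0.05. At 6 weeks 796 genes were higher (6.55%) and 674 lower (5.54%), and at 8 weeks 619 higher (5.09%) and 5244 lower (43.1%), 48.2% in all. At 8 weeks the median over all genes was -0.26, and median-of-ratios size factors were between 0.804 and 1.02 in CAC and between 1.00 and 1.21 in NCAC livers. After median-of-ratios rescaling, applied to this week after its counts were seen, the median was -0.01 and 1500 genes were higher and 1576 lower, near equal numbers in both directions. Without other-tissue libraries 695 were higher and 3454 lower at 8 weeks, and 700 higher and 445 lower at 6 weeks. In the acute phase list 28 of 34 were higher at 6 weeks, with medians of 0.44, 1.07 and 1.48 at 2, 4 and 6 weeks. Saa1 differed by 0.68, 3.78, 6.13 and 6.87 at 2, 4, 6 and 8 weeks. Stat3 differed by 0.32, 0.73, 0.91 and 0.62, and Fgl1 by 0.95, 1.30, 1.07 and 1.10. Car3 differed by -0.33, -1.40, -3.85 and -6.05.

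Whether the difference at 4 weeks itself departed from those of the neighbouring weeks was tested as an interaction. Between 2 and 4 weeks 0 genes passed in limma, with 1625 at an unadjusted p under 0.05. Saa1, at a change of 3.10 ± 1.21 (adjusted p = 0.309), was among those that did not. Between 4 and 6 weeks 7 genes were larger (0.0576%) and 1 smaller (0.00822%). These, named after their values were seen, were Selp, Chil1, Adm, Ctla2a, Ramp2, Cxcl14 and Ecscr upward and Car1 downward. Selp encodes P-selectin, which captures leukocytes on the vessel wall, and its difference grew by 1.18 ± 0.21 (adjusted p = 0.00537). Without other-tissue libraries 0 genes passed this test.

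**Figure D5:**
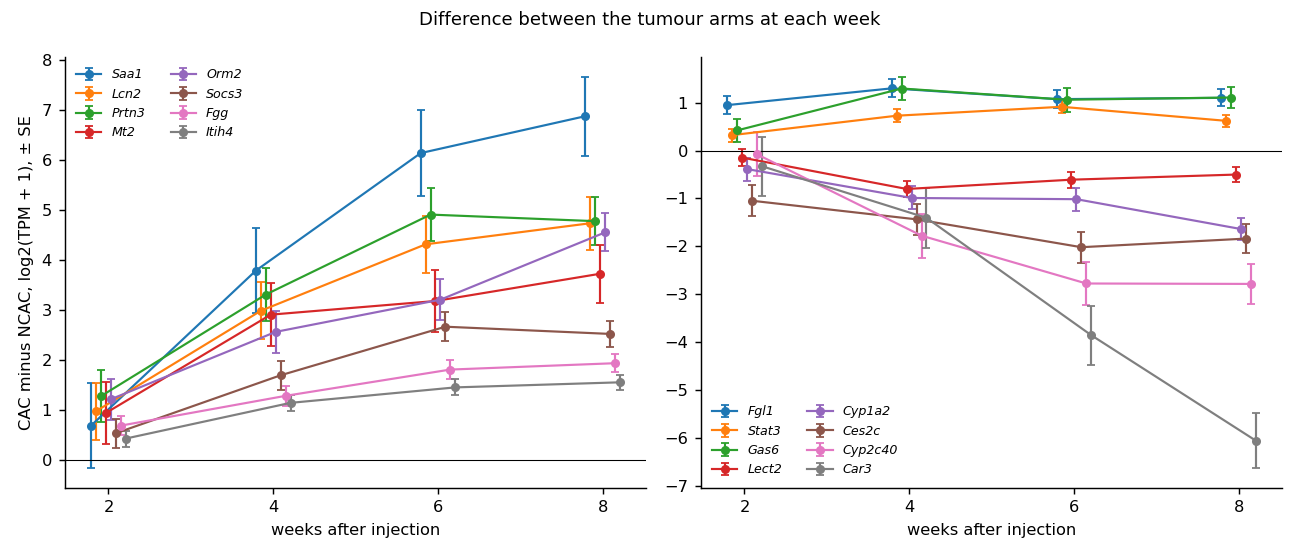
Difference CAC minus NCAC of log2(TPM + 1) at 2, 4, 6 and 8 weeks, with bars of 1 standard error from the fit over all 62 libraries. The left panel shows 8 acute phase and signalling genes, all above 0 at each week, and the right panel 3 genes above 0 and 5 below it, Car3 reaching -6.05 at 8 weeks.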

How the data were processed

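The authors deposited 1 table of TPM, the share of a library's transcripts scaled to a fixed total, for 47643 gene symbols in 62 mouse liver libraries. RNA came from Trizol homogenates, and stranded TruSeq mRNA libraries were run on a NovaSeq instrument, per the labels' protocols. Per the submitters' processing notes the build was mm10. Not given in the sources used here are the aligner, quantifier, annotation, use of strand and batches. TPM keep no depth, so counting error is unknown and no count model was used. Columns were matched to samples by name (0 unmapped).

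The 12160 genes that reached 1 TPM in 5 or more libraries were fitted as log2(TPM + 1) with limma 3.58.1 in R 4.3.3, with 1 mean per group (12 groups, 62 libraries) and trended moderation. Adjusted p-values are Benjamini-Hochberg within a comparison. The pseudocount of 1 understates the change of low genes. Tables and figures were made with Python 3.11.15, pandas 2.3.3, NumPy 2.4.6 and matplotlib 3.10.9, positions with GENCODE M21 (45134 symbols matched) and promoters with RefSeq. On simulated data with 12160 genes in the layout of CAC against NCAC at 4 weeks, 52, 88, 98 and 96% of genes with true log2 changes of 0.5, 1, 2 and 3 were recovered, with 4.02% of calls false. The simulated noise was normal, independent between genes and equal in spread across groups. These percentages therefore do not cover uneven spread, linked genes or other-tissue transcripts in the real libraries.

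The comparison, gene lists and sentinel genes were chosen with earlier results of these data known. Named genes were the 15 largest increases and 15 largest decreases among called genes averaging 5 TPM or more in an arm that kept their sign when any 1 of the 10 libraries was left out, excluding predicted or clone symbols, with up to 4 members of each described list (2 where none was called) and 18 sentinel genes. Others are said to be named after their values were seen. Replicate numbers were not taken to pair the samples. Same-number libraries of CAC and NCAC correlated between -0.24 and 0.36 in their deviations from the group means, which cannot settle whether they pair. Alternatives were a pseudocount of 0.1, no filter, a mean of at least 5 TPM, median-of-ratios rescaling, quantile normalization, a fit within the 10 libraries, a minimum log2 difference of 1, a replicate block, leaving out 12 other-tissue libraries (Ctrb1 at least 100 TPM or Acta1 at least 10 TPM) and leaving out each of the 10 libraries.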

Additional observations from a re-analysis of the deposited data

Results flagged for a closer look

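In groups of 5 livers, a library was looked at again when its gap to the nearest other exceeded 0.71 of the group's range of log2(TPM + 1). This held in 25 of 246 gene and arm pairs examined, and chance flags about 1 in 20 groups. In CAC livers the highest library stood apart for Cxcl1 (148 TPM), Cpb1 (0.387 TPM) and Rnase1 (0.785 TPM), and the lowest for Fgf21 (0.218 TPM), Fmo1 (69.9 TPM), Fads1 (125 TPM) and C3 (4424 TPM). Replicate 2 was the library for Cxcl1, Fmo1, Fads1 and C3, and replicate 1 for Cpb1, Rnase1 and Fgf21.

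In NCAC livers replicate 4 was the highest for Gstt1 (499 TPM), Tst (525 TPM), Stfa2l1 (0.752 TPM), Cd79a (16.3 TPM), Cd79b (9.85 TPM) and Apoc3 (4760 TPM), and the lowest for Ctsc (26.7 TPM), Fmo1 (111 TPM) and C3 (2981 TPM). Replicate 1 was the lowest for Lbp (28.7 TPM), Notum (19.3 TPM), Fgg (2397 TPM) and Itih3 (379.7 TPM). Replicate 2 was the lowest for Txnl4b (10.3 TPM) and Gsta2 (18.2 TPM) and the highest for Il1r1 (23.9 TPM), and replicate 5 the lowest for Pck1 (708 TPM) and Cyp3a13 (48.7 TPM).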

How the results depend on the processing

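All 154 calls between CAC and NCAC at 4 weeks kept their sign wherever they were measured, but their number depended on the setting. Higher and lower genes, 135 and 19 as reported, were 20 and 0 in a fit within the 10 libraries (19 of the 20 among the 154), 49 and 3 without other-tissue libraries and 48 and 6 with a minimum log2 difference of 1. Lower genes were 40 with quantile normalization and 37 with median-of-ratios rescaling, and higher genes 135 in each. With 1 library left out, higher genes were between 97 and 147 and lower genes between 4 and 29 (4 without CAC replicate 2, 9 without CAC replicate 4, 10 and 12 without NCAC replicates 5 and 3, 29 without CAC replicate 5 or NCAC replicate 2). The cause was not tested. Higher genes numbered 133, 126 and 110 with a pseudocount of 0.1, no filter and a mean of at least 5 TPM. With a replicate block, 123 were higher and 17 lower; of CAC libraries 1 of 5 correlated best with its own number, a hint from the data only.

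CAC against Con had 169 lower genes without other-tissue libraries. The change between 4 and 6 weeks had 3 and 0 genes after median-of-ratios rescaling and 0 and 0 without other-tissue libraries. Without other-tissue libraries uncalled Igf1 was at -0.17, Gdf15 at 0.13, Alb at -0.10, Nfkbiz at -0.028 and Cpb1 at 0.038, all of the other sign. Alb was at 0 with quantile normalization and between -0.031 and 0.10 with 1 library left out (below 0 without CAC replicate 2, NCAC replicate 3 or NCAC replicate 5), and Mup3 between -0.97 and 0.022 (above 0 without CAC replicate 2). Of 60 called genes named, 21 lost the call without some single library. With 5 livers an arm and unknown depth, differences that missed the threshold are not shown to be absent.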
